A study of Mus musculus with 4 samples.

Results

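B cells are recognised by a small group of genes, 9 of which are described here in sorted myeloid cells: Ighm, Ighd, Cd79a, Cd79b, Vpreb3, Ms4a1, Cd22, Pax5 and Ebf1. They were taken by symbol from the 28585 genes listed for each library, in which each symbol has 1 row, with no threshold on a measured value, although earlier results of these data were known when they were chosen. The libraries are bulk RNA sequencing of PMN-MDSCs, polymorphonuclear myeloid-derived suppressor cells, from the spleens of C57BL/6J pups on postnatal day 7. The comparison shows how much RNA of these B cell genes the preparations held and whether it differed with the genotype. There were 2 libraries from Dhps fl/fl Lysm cre pups (labelled Dhps cko, DhpsΔLysm below) and 2 from Dhps fl/fl littermates (labelled Dhps flox). Dhps encodes deoxyhypusine synthase, and both groups carry the floxed gene. Only the DhpsΔLysm pups carry the Cre recombinase, which is driven by the Lysm (Lyz2) locus and therefore acts in myeloid cells rather than in B cells. The cells were gated as CD11b+ Ly6Clo/- Ly6G+, and the labels give 300000 cells but neither the sex nor the number of pups behind a library. Whether replicates came from separate animals is not stated, so the spread between them may be technical.

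A B cell senses antigen through its receptor, an immunoglobulin made of heavy and light chains that is carried to the surface by the signalling pair encoded by Cd79a and Cd79b. Immature and mature B cells of the spleen carry IgM, and mature ones also IgD, whose heavy chain is spliced from the same primary transcript as that of IgM. The transcription factors encoded by Ebf1 and Pax5 open and hold the B lineage programme, and the surface proteins encoded by Ms4a1 (CD20) and Cd22 appear as the cells mature. In the spleen of a mouse pup B cells lie beside the granulocytes from which PMN-MDSCs are sorted. Neutrophils are not a known site of the full set of these genes.

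Promoter sequence was at hand for 5 of the 9 genes (RefSeq, GRCm38.p6, from 250 bases before to 50 after the transcript start). The octamer, ATTTGCAT on either strand, is bound by OCT factors with their B cell coactivator, and the palindrome CCCNNGGG lies at the core of the sites bound by EBF1. The octamer occurred in 1.74% of 32851 promoters and CCCNNGGG in 13.7%. Among the 5 genes, the octamer was found only in Vpreb3, with its first base at -45 from the start, and CCCNNGGG only in Cd22, with its first base at -48. The 100 bases before these starts are shown because they hold the only matches, with the motif in capitals, for Vpreb3 at chr10:75948200-75948299 on the plus strand and for Cd22 at chr7:30879029-30879128 on the minus strand. Both windows lie within the span of the gene, upstream of the start of a shorter transcript, and hold no GENCODE M21 exon.
Vpreb3: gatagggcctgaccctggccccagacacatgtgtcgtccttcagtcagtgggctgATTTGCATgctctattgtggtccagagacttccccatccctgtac
Cd22: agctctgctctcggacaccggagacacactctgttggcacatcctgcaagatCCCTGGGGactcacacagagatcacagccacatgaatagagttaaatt
The matches describe these letters only and say nothing of binding in these cells.

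Granulocyte genes led the libraries. The 12 neutrophil markers, led by Ngp, a secondary granule protein gene with a mean of 27276 FPKM, took up 24.0% to 25.0% of the summed FPKM of a library. FPKM divide the fragments of a gene by the length of its transcripts and by the depth of the library, and the steps between low values gave only rough depths of 29600000 to 31700000 fragments. The targeted gene Dhps was at 2.38 and 2.59 FPKM in DhpsΔLysm against 3.57 and 3.11 FPKM in the Dhps fl/fl libraries (log2 fold change -0.41, adjusted p = 0.63 by limma), so it was present in both groups. Lyz2, the gene that carries the Cre, was at 2245 and 2380 against 6874 and 6544 FPKM, with groups apart in the direction of the labels. The 9 B cell identity genes together made up 0.0132% to 0.0214% of the summed FPKM. They were nevertheless measured in all 4 libraries, and all 9 passed the filter of a mean of at least 0.1 FPKM that 17948 genes passed.

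All 9 genes had a higher mean in DhpsΔLysm, by 0.12 to 0.77 on the log2 scale, where 52.2% of all genes tested had a higher value. For 6 of them, Ighm, Ighd, Cd79a, Cd79b, Ms4a1 and Cd22, both DhpsΔLysm libraries lay above both Dhps fl/fl libraries, which 20.0% of all genes tested showed in this direction and 16.0% in the other. None of the 9 had an adjusted p under 0.05 by limma, a threshold that 1 gene (0.00557%) of those tested passed, the predicted gene Gm20716. At an unadjusted p under 0.05, 5 of the 9 (Ighm, Ighd, Cd79a, Ms4a1 and Cd22) were higher and 0 lower, against 4.72% of all genes higher and 2.28% lower. That count of 5 became 1 without DhpsΔLysm replicate 2, 3 without Dhps fl/fl replicate 1 and 7 without Dhps fl/fl replicate 2. The median log2 fold change was 0.50 for the 9 genes and 0.01 for all genes tested. With 2 libraries a group, the smallest p an exact permutation test allows is 0.33. In bulk samples a larger number of B cells and more of this RNA per B cell cannot be told apart. Whether all of this RNA came from B cells was not tested.

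**Figure D1:**
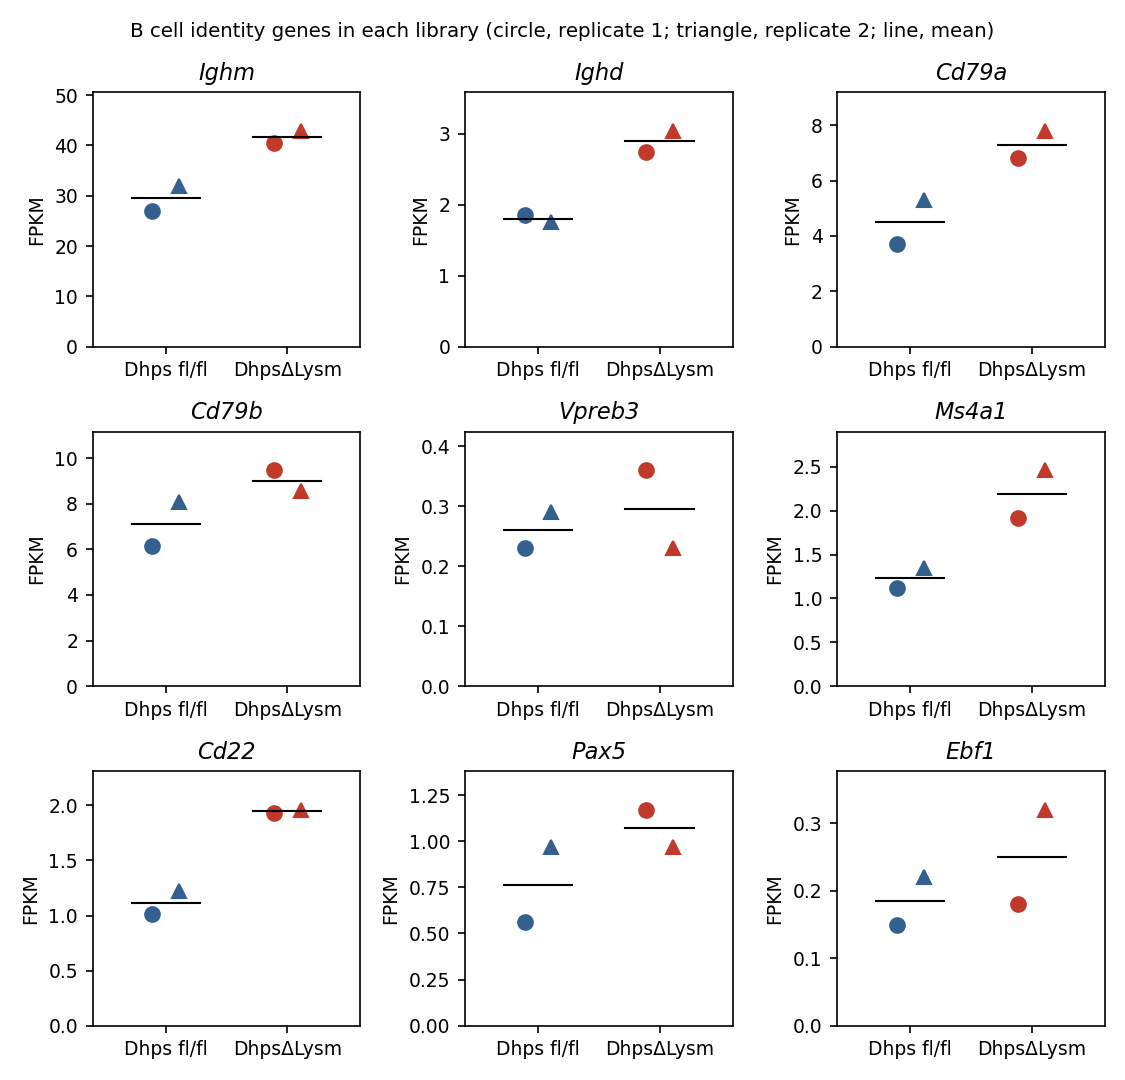
FPKM of each B cell identity gene in the 2 Dhps fl/fl libraries (blue) and the 2 DhpsΔLysm libraries (red), with replicate 1 as circles, replicate 2 as triangles and the group mean as a line. The groups do not overlap for 6 genes, whereas those of Vpreb3 and Ebf1 overlap and Pax5 shares the value 0.97 FPKM between both groups.

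The heavy chain genes lie next to each other on chromosome 12 of GRCm38 (GENCODE M21). Ighm (ENSMUSG00000076617; 113418558 to 113422730, minus strand) encodes the constant region of IgM and was the most abundant of the 9. It was at 40.56 and 42.91 FPKM in DhpsΔLysm replicates 1 and 2 compared with 27.03 and 31.99 FPKM for the corresponding Dhps fl/fl libraries. Both DhpsΔLysm libraries were thus higher, with means of 41.7 ± 1.7 and 29.5 ± 3.5 FPKM (SD, n = 2 each). The log2 fold change of Ighm was 0.50 (95% interval 0.25 to 0.75, limma adjusted p = 0.49, Benjamini-Hochberg over all genes tested).

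Ighd (ENSMUSG00000104213; 113406604 to 113416324, minus strand) encodes the constant region of IgD, a mark of mature naive B cells. Its levels were 2.74 and 3.04 FPKM in DhpsΔLysm and 1.85 and 1.75 FPKM in Dhps fl/fl. The replicates lay close together and the genotypes apart, at 2.89 ± 0.21 and 1.80 ± 0.071 FPKM (SD, n = 2 each). The log2 fold change was 0.65 (95% interval 0.31 to 0.99, limma adjusted p = 0.49). Within a library the FPKM of Ighm was 14.8 and 14.1 times that of Ighd in DhpsΔLysm and 14.6 and 18.3 times in Dhps fl/fl, so the proportion of IgM to IgD transcripts overlapped between genotypes.

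Cd79a and Cd79b encode Igα and Igβ, which pair to carry the receptor's signal into the cell. Cd79a (ENSMUSG00000003379; chromosome 7, 24897381 to 24902197) was at 6.81 and 7.80 FPKM in DhpsΔLysm against 3.70 and 5.30 FPKM in the Dhps fl/fl libraries. The groups were apart, at 7.31 ± 0.70 and 4.50 ± 1.13 FPKM (SD, n = 2 each), although the 2 Dhps fl/fl libraries lay farther apart than the nearest libraries of opposite genotype. Its log2 fold change was 0.71 (95% interval 0.21 to 1.20, limma adjusted p = 0.57), which became 0.45 when Dhps fl/fl replicate 1 was left out. Cd79b (ENSMUSG00000040592; chromosome 11, 106311341 to 106314762) was at 9.46 and 8.54 FPKM in DhpsΔLysm against 6.14 and 8.06 FPKM in the Dhps fl/fl libraries. Its lowest DhpsΔLysm value lay just above the highest Dhps fl/fl value. The log2 fold change of Cd79b was 0.35 (95% interval -0.04 to 0.74, limma adjusted p = 0.75), and leaving out the same library gave 0.16. The FPKM of Cd79a was 0.720 and 0.913 times that of Cd79b in DhpsΔLysm and 0.603 and 0.658 times in Dhps fl/fl, so the pair did not keep 1 proportion across the libraries.

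Vpreb3, whose octamer is shown above, encodes a protein related to the surrogate light chain of the pre-B cell receptor. Vpreb3 (ENSMUSG00000000903; chromosome 10, 75943057 to 75949657) was at 0.36 and 0.23 FPKM in DhpsΔLysm against 0.23 and 0.29 FPKM in the Dhps fl/fl libraries. The genotypes overlapped, and with the longest annotated transcript these values stand for only about 8, 5, 5 and 6 fragments. Its log2 fold change was 0.12 (95% interval -0.78 to 1.02, limma adjusted p = 0.97) and turned to -0.12 without DhpsΔLysm replicate 1. The interval of Vpreb3 thus includes 0.

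Ms4a1 and Cd22 encode proteins of the B cell surface. Ms4a1 (ENSMUSG00000024673; chromosome 19, 11249675 to 11266241), which encodes CD20, was at 1.92 and 2.46 FPKM in DhpsΔLysm against 1.12 and 1.35 FPKM in the Dhps fl/fl libraries. The DhpsΔLysm mean thus came to 177% of that in Dhps fl/fl, with a log2 fold change of 0.77 (95% interval 0.27 to 1.27, limma adjusted p = 0.55). Cd22 (ENSMUSG00000030577; chromosome 7, 30865402 to 30880342) encodes an inhibitory lectin that dampens receptor signalling. It was at 1.93 and 1.96 FPKM in DhpsΔLysm against 1.01 and 1.22 FPKM in the Dhps fl/fl libraries, 2 groups that were well apart. For Cd22 the mean in DhpsΔLysm came to 174% of that in Dhps fl/fl, with a log2 fold change of 0.76 (95% interval 0.32 to 1.19, limma adjusted p = 0.51). Of the exon bases of Cd22, 9.5% overlap Gm29439 on the other strand, and whether the authors counted by strand is not stated, so reads of these genes could not be told apart there.

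The lineage transcription factors were low. Pax5 (ENSMUSG00000014030; chromosome 4, 44524757 to 44710487), the factor that holds cells to the B lineage, was at 1.17 and 0.97 FPKM in DhpsΔLysm against 0.56 and 0.97 FPKM in the Dhps fl/fl libraries. Only Dhps fl/fl replicate 1 stood below the others, and the log2 fold change of 0.47 (95% interval -0.30 to 1.24, limma adjusted p = 0.80) was 0.12 without it. Of its exon bases, 7.18% overlap 5730488B01Rik on the other strand. Ebf1 (ENSMUSG00000057098; chromosome 11, 44617317 to 45008091), which acts before Pax5 in B lineage entry and is also expressed by some stromal cells, was the least abundant of the 9. It was at 0.18 and 0.32 FPKM in DhpsΔLysm against 0.15 and 0.22 FPKM in the Dhps fl/fl libraries. The genotypes overlapped, and the log2 fold change of 0.28 (95% interval -0.75 to 1.30, limma adjusted p = 0.92) was -0.01 without DhpsΔLysm replicate 2. Fold changes of these low genes are understated by the 0.1 added before the logarithm. With 1 added instead, the log2 fold change was 0.24 for Pax5, 0.08 for Ebf1, 0.04 for Vpreb3, 0.51 for Ms4a1 and 0.48 for Cd22.

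**Figure D2:**
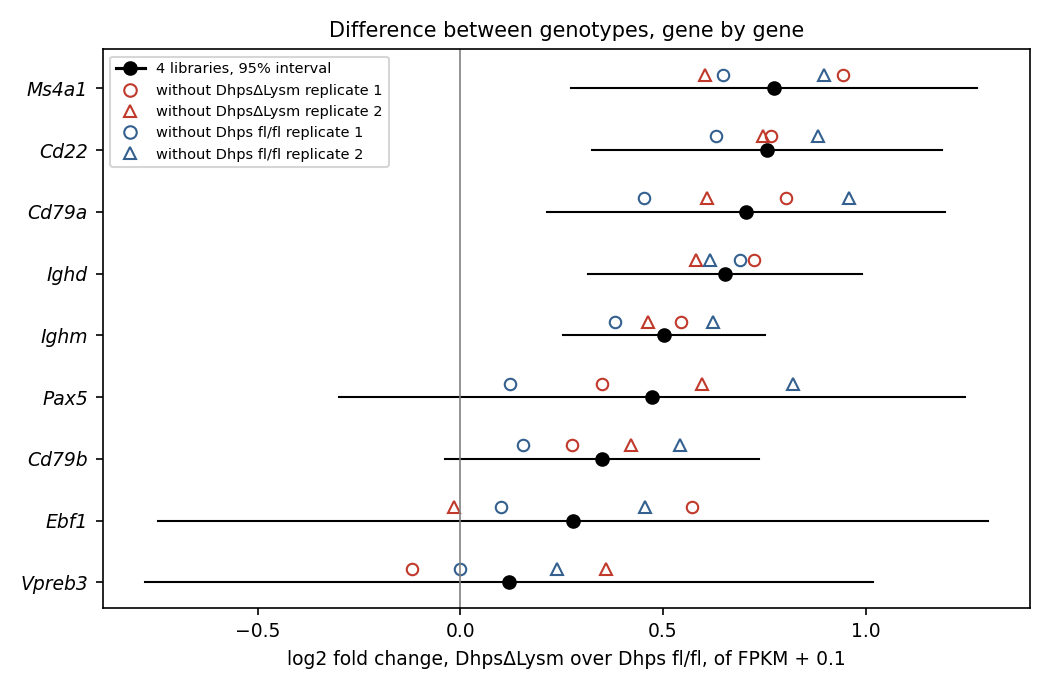
Log2 fold change of FPKM + 0.1, DhpsΔLysm over Dhps fl/fl, for each B cell identity gene, with its 95% interval from limma (black) and the value with each library left out (open symbols). The intervals of Cd79b, Pax5, Ebf1 and Vpreb3 include 0, and leaving out Dhps fl/fl replicate 1 gives 0.16 for Cd79b and 0.12 for Pax5.

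The order of the levels was Ighm (mean over the 4 libraries 35.6 FPKM), Cd79b (8.05), Cd79a (5.90), Ighd (2.35), Ms4a1 (1.71), Cd22 (1.53), Pax5 (0.917), Vpreb3 (0.278) and Ebf1 (0.217), all scaled by transcript length. The neighbours Ms4a1 and Cd22 overlapped in their ranges across the libraries, as did Cd79b and Cd79a, Ighd and Ms4a1, Cd22 and Pax5, and Vpreb3 and Ebf1. Dhps fl/fl replicate 1 had the lowest value of the 4 libraries for 7 of the 9 genes and DhpsΔLysm replicate 2 the highest for 6. The exceptions at the bottom were Ighd, lowest in Dhps fl/fl replicate 2, and Vpreb3, whose lowest value was shared by DhpsΔLysm replicate 2 and Dhps fl/fl replicate 1. The summed FPKM of the 9 genes was 65.1 and 68.2 in DhpsΔLysm and 41.8 and 51.2 in Dhps fl/fl, and Ighm made up most of it. Within a library, Ms4a1 and Cd22 kept the steadiest proportion to Cd79a, with ratios of 0.255 to 0.315 and 0.230 to 0.283. The ratio of Vpreb3 to Cd79a varied most, from 0.0295 to 0.0622.

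Per unit of the granulocyte receptor gene Csf3r, the 9 genes together came to 290.0 and 312 thousandths in DhpsΔLysm and to 214 and 238 thousandths in Dhps fl/fl. Set against Ly6g, the gene of the antigen used in the gate, they came to 293 and 282 thousandths in DhpsΔLysm and to 214 and 277 thousandths in Dhps fl/fl. The DhpsΔLysm libraries remained the higher ones on both scales, by little against Ly6g. Ly6g itself was at 222 and 242 FPKM in DhpsΔLysm against 195 and 185 FPKM in the Dhps fl/fl libraries.

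Other genes of the B cell pathway were followed in a list of 44, of which 39 passed the filter. Of these, 34 had a log2 fold change above 0 (52.2% of all genes tested did), and 21 had both DhpsΔLysm libraries above both Dhps fl/fl libraries, with 2 (Prdm1 and Bcl11a) in the opposite order (20.0% and 16.0% of all genes). At an unadjusted p under 0.05, 8 were higher and 0 lower (4.72% and 2.28% of all genes), none had an adjusted p under 0.05 by limma, and the median log2 fold change was 0.33.

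Light chains pair with the heavy chain that Ighm encodes. All 4 of their constant region genes were higher at an unadjusted p under 0.05, beside 4.72% of all genes, with log2 fold changes of 0.55 to 0.88. Igkc, the kappa constant region and the most abundant, was at 27.75 and 28.16 FPKM in DhpsΔLysm against 18.73 and 13.58 FPKM in the Dhps fl/fl libraries, so the groups were apart (limma adjusted p = 0.49). The lambda constant regions gave log2 fold changes of 0.55 for Iglc1, 0.64 for Iglc2 and 0.88 for Iglc3. Iglc2 and Iglc3 are close copies, so the split of reads between them is uncertain.

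Among 13 co-receptors and surface regulators all had a log2 fold change above 0, from 0.08 to 0.89. Tnfrsf13c, which encodes the receptor for the survival factor BAFF, was at 1.05 and 1.11 FPKM in DhpsΔLysm against 0.51 and 0.72 FPKM in the Dhps fl/fl libraries. Its groups were apart (log2 fold change 0.74, limma adjusted p = 0.64). Cd37, a tetraspanin gene that many leukocytes express, was the most abundant of the group at a mean of 72.2 FPKM and had a log2 fold change of 0.16.

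The transcription factors and coactivators were mixed, with 5 of 7 above 0 and 2 higher at an unadjusted p under 0.05, beside 52.2% and 4.72% of all genes. Spib, a factor of B cells and plasmacytoid dendritic cells, was at 3.07 and 2.76 FPKM in DhpsΔLysm against 1.27 and 2.08 FPKM in the Dhps fl/fl libraries (log2 fold change 0.80, limma adjusted p = 0.63). Pou2af1, the coactivator that works at the octamer, was at 1.57 and 1.92 against 1.00 and 1.30 FPKM (log2 fold change 0.57, limma adjusted p = 0.69). Both were higher in each DhpsΔLysm library. Tcf3, the most abundant of the group at 13.6 FPKM and expressed outside B cells too, had a log2 fold change of -0.01.

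The receptor kinases and adaptors had a median log2 fold change of 0.03 and 0 of 7 genes with an unadjusted p under 0.05. Plcg2, the most abundant at 103 FPKM, had a log2 fold change of 0.01, and Lyn, Syk and Btk, which like Plcg2 are expressed by neutrophils, lay between 0.00 and 0.06. Blk, a kinase gene largely restricted to B cells, was at 1.35 and 1.04 FPKM in DhpsΔLysm against 0.55 and 0.91 FPKM in the Dhps fl/fl libraries (log2 fold change 0.67, limma adjusted p = 0.75). Blk and the adaptor gene Blnk (log2 fold change 0.26) were the 2 of the 7 whose groups did not overlap, a share near the 20.0% of all genes, and Bank1 had a log2 fold change of -0.08. Of the early B cell genes only 3 of 7 passed the filter, led by Dntt, which encodes the template-independent polymerase of V(D)J joining. It was at 0.97 and 0.53 FPKM in DhpsΔLysm against 0.57 and 0.14 FPKM in the Dhps fl/fl libraries, and the groups overlapped. Vpreb1, Vpreb2, Igll1 and Rag2, the genes of the surrogate light chain and of a recombinase subunit, all stayed under a mean of 0.1 FPKM. Of the 5 plasma cell genes that passed the filter 3 were above 0 and 2 below, and Xbp1, the most abundant, which is expressed in many cells, had a log2 fold change of 0.05.

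**Figure D3:**
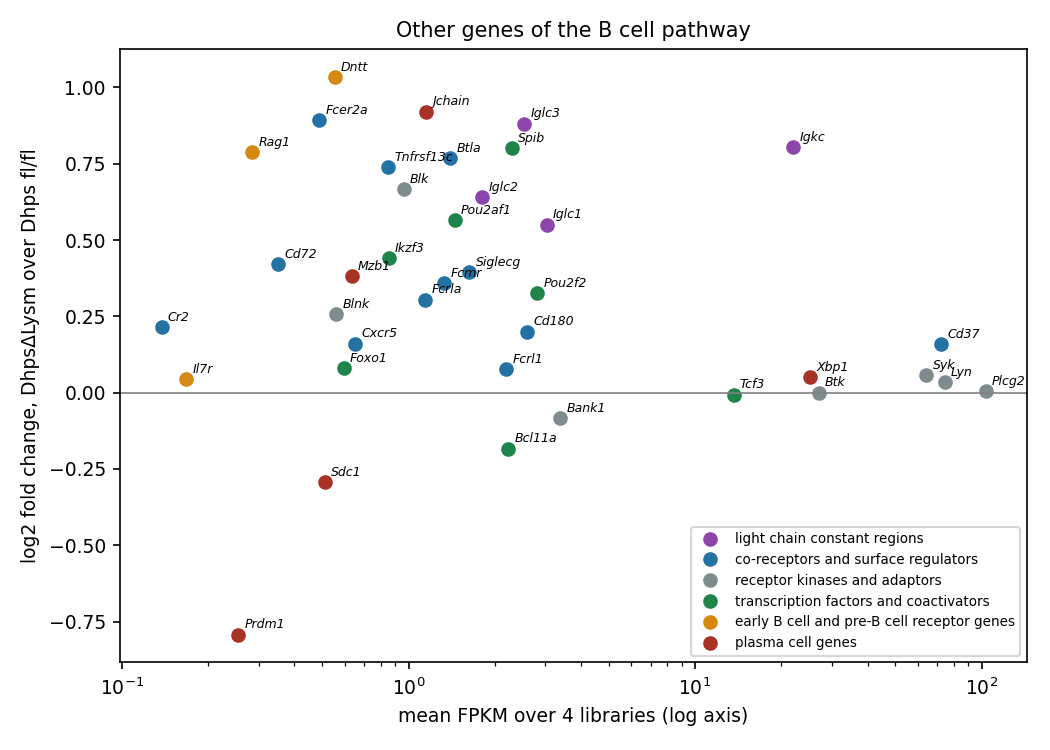
Log2 fold change, DhpsΔLysm over Dhps fl/fl, against mean FPKM over the 4 libraries (log axis) for other B cell pathway genes that passed the filter and are reported here, coloured by role. The 4 light chain genes lie between 0.55 and 0.88, and the 7 kinase and adaptor genes run from -0.08 for Bank1 to 0.67 for Blk.

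Markers of other cells were measured beside the 9 genes, and several lists had higher sums in DhpsΔLysm too. Over all genes tested, 52.2% had a log2 fold change above 0 and 4.72% were higher at an unadjusted p under 0.05, the shares against which the counts of these lists stand. The summed FPKM of the T cell list, led by Trbc2, was 25.7 and 18.9 in DhpsΔLysm and 15.6 and 9.49 in Dhps fl/fl, with all 10 genes above 0, a median log2 fold change of 0.70 and 3 higher at an unadjusted p under 0.05. Trbc2 and Trbc1 are close copies. MHC class II genes, which B cells share with macrophages and dendritic cells, summed to 62.3 and 65.0 in DhpsΔLysm and to 41.2 and 46.3 in Dhps fl/fl (6 of 6 above 0, median 0.53, 4 higher at an unadjusted p under 0.05), led by Cd74, the invariant chain gene. The monocyte and macrophage list, led by Ly6c2, summed to 357 and 354 in DhpsΔLysm and to 296 and 291 in Dhps fl/fl (9 of 10 above 0, median 0.23, 5 higher at an unadjusted p under 0.05). Within this list the macrophage genes ranged from -0.01 for Spic, 0.12 for Cd5l, 0.14 for Vcam1 and 0.22 for Adgre1 to 0.50, 0.53 and 0.63 for the complement genes C1qc, C1qa and C1qb on the log2 scale. The sums of these 3 lists did not overlap between the genotypes.

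The eosinophil list, led by Siglecf, summed to 14.0 and 12.4 in DhpsΔLysm and to 9.32 and 9.06 in Dhps fl/fl (6 of 6 above 0, median 0.49, 2 higher at an unadjusted p under 0.05, beside 52.2% and 4.72% of all genes). The dendritic cell list, led by Bst2, summed to 8.05 and 8.04 in DhpsΔLysm and to 5.05 and 6.72 in Dhps fl/fl (5 of 5 tested above 0, median 0.48). The sums of both lists were apart too. Those of the erythroid, NK cell, platelet and primary granule lists overlapped. The erythroid list, led by Hbb-bs, summed to 736 and 882 in DhpsΔLysm and to 609 and 917 in Dhps fl/fl (9 of 9 above 0, median 0.10). NK cell markers, led by Nkg7, had 2 of 7 genes past the filter, both below 0, and Ncr1, Klrb1c, Eomes and Prf1 were each at 0 in at least 1 library. The platelet list, led by Gp1ba, had a median of -0.26. The primary granule genes, led by Ms4a3, summed to 81.3 and 54.5 in DhpsΔLysm and to 46.3 and 56.5 in Dhps fl/fl (5 of 5 above 0, median 0.55). The 12 neutrophil markers had a median of 0.08 and sums of 77526 and 79945 in DhpsΔLysm and 77509 and 73002 in Dhps fl/fl, where the nearest libraries of the 2 genotypes were almost level. No gene of any of these lists had an adjusted p under 0.05 by limma. The part of other cells in the B cell difference was not tested.

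**Figure D4:**
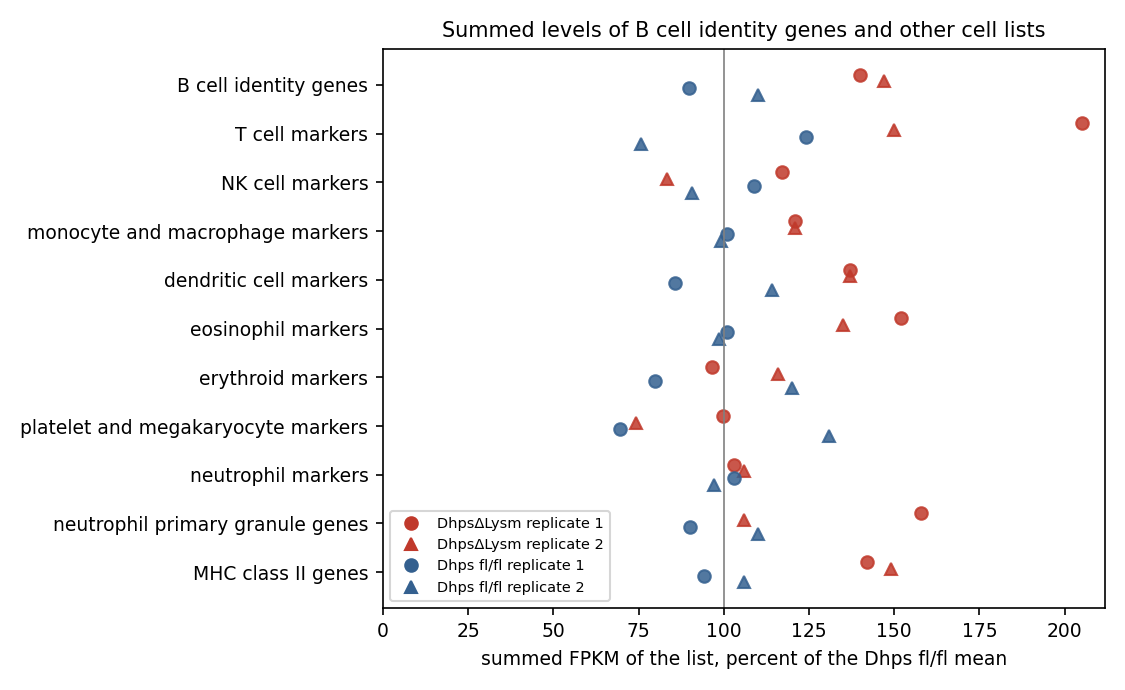
Summed FPKM of each marker list in each library, as a percentage of its Dhps fl/fl mean (vertical line at 100). B cell identity genes reach 140% and 147% in the DhpsΔLysm libraries against 89.9% and 110% in the Dhps fl/fl libraries, whereas neutrophil markers stay between 97.0% and 106%.

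The pattern of the 9 genes over the 4 libraries was also compared with that of 10545 genes outside the lists with a mean of at least 1 FPKM. The measure was the Pearson r between the log2 level of a gene and the mean of the centred log2 levels of the 9, over only 4 libraries, so it is a description without a test. The closest were Uxs1, Exoc8, Lgals1, Gm6286 and Npc1, each with r between 0.999 and 1.000, and 856 genes had an r above 0.9. Their differences were smaller than those of most of the 9, with log2 fold changes of 0.08 for Uxs1, 0.14 for Exoc8, 0.18 for Lgals1, 0.27 for Gm6286 and 0.13 for Npc1. Among the 9 genes themselves, the r with the mean of the other 8 was 0.995 for Ighm, 0.990 for Cd79a and 0.975 for Cd22, and lower for Ebf1 (0.621) and Vpreb3 (0.316).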

How the data were processed

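Each deposited table holds, for 1 library, the FPKM of each gene to 2 decimals, which the authors calculated with StringTie and ballgown after Cutadapt filtering and HISAT2 alignment (mm10 in the submitters' processing notes). The annotation and the use of strand are not given in the sources used here. From the FPKM, log2(FPKM + 0.1) was computed for 17948 genes (mean 0.1 FPKM or more), and the 2 genotypes were tested against each other by limma (version 3.58.1, R 4.3.3; lmFit, eBayes with trend, two-sided, Benjamini-Hochberg adjustment over all genes tested, threshold 0.05). The fit was tested on simulated data in which the planted differences were larger than those of the B cell identity genes. The simulation therefore says nothing of differences as small as theirs. FPKM sums ran from 304281 to 319286. FPKM hold no read counts. Approximate depths came from steps between low values of single-exon genes, of which 37.9% to 41.1% lay within 0.15 of a whole fragment where chance gives 30%, so whole reads were not recovered and no counting interval is given.

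The 9 genes and the lists were chosen with earlier results of these data known. Named beside the 9 genes were, in each pathway list, the most abundant gene and those with an unadjusted p under 0.05, in each other list the most abundant gene, the 5 genes most like the 9, and Dhps. A gene that this rule names is not reported here. No gene of the pathway lists was at 0 in all 4 libraries. Lyn, Syk, Btk, Blk, Blnk, Bank1, C1qa, C1qb, C1qc, Spic, Cd5l, Vcam1, Adgre1, Vpreb1, Vpreb2, Igll1, Rag1, Rag2, Prdm1, Bcl11a, Jchain, Trbc1, the 4 NK cell genes at 0, Ly6g, Csf3r, Lyz2 and Gm20716 were named after their values were seen. Coordinates are from GENCODE M21. As alternatives, the pseudocount, the filter, the scaling and the variance model were changed 1 at a time, a replicate block was added, and each library was left out. Figures were drawn with matplotlib 3.10.9 in Python 3.11.15.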

Additional observations from a re-analysis of the deposited data

How the results depend on the processing

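Of 123 fold changes of the 9 genes under 14 alternatives, 120 kept their direction, none had an adjusted p under 0.05, and 3 reversed: Vpreb3 was -0.12 without DhpsΔLysm replicate 1 and -0.0014 without Dhps fl/fl replicate 1, and Ebf1 was -0.015 without DhpsΔLysm replicate 2. The filter, the variance model and the replicate block cannot change the log2 fold change of a gene. Directions kept under those alternatives were therefore fixed in advance, and all 3 reversals came with 1 library left out. With 1 library left out Vpreb3 ran from -0.12 to 0.36 and Ebf1 from -0.015 to 0.57. Their median log2 fold change was 0.68 with a filter of a mean of at least 1 FPKM, which leaves out Pax5, Ebf1 and Vpreb3, and ran from 0.38 to 0.62 with 1 library left out. The number of the 9 genes higher at an unadjusted p under 0.05 was 5 under every alternative that kept all libraries, and ran from 1 (without DhpsΔLysm replicate 2) through 3 (without Dhps fl/fl replicate 1) to 7 (without Dhps fl/fl replicate 2) with 1 library left out, where the lone library of a group is assumed to vary like the others. The number whose groups did not overlap was 6 or 7 under the 3 other scalings. The number of all genes with an adjusted p under 0.05 was 1 in the main comparison, 0 with a pseudocount of 0.01, with no filter or with a replicate block, 2 with TPM scaling, quantile scaling or a robust fit, 4 with the 1 FPKM filter, and 0 to 0 with 1 library left out. The cause of these shifts was not tested. Across 10629 genes same-numbered libraries did not deviate together (r = -0.06), but this 1 value cannot show whether they shared a litter or a batch. The replicate block left the 9 genes at 5 with an unadjusted p under 0.05 by limma. The scalings moved the median of all genes by at most 0.03 on the log2 scale. With the longest annotated transcript, Vpreb3 stands for roughly 5 to 8 fragments a library and Ebf1 for 27 to 59. With the shortest, Vpreb3 stands for roughly 4 to 7 and Ebf1 for 1 to 3.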

Other observations

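The 2 libraries of each genotype ranked in opposite orders for the sums of different lymphoid lists, a pattern picked out after the values were seen. In Dhps fl/fl replicates 1 and 2, the 9 B cell identity genes summed to 41.8 and 51.2 FPKM and the T cell markers to 15.6 and 9.49 FPKM. The early B cell genes, among them Dntt and Rag1, summed to 1.17 and 0.51 FPKM. In DhpsΔLysm replicates 1 and 2 the sums were, in that order, 65.1 and 68.2, 25.7 and 18.9, and 1.87 and 1.26 FPKM. Among antibody genes in Dhps fl/fl, Ighm was lower in replicate 1 (27.03 against 31.99 FPKM) and Igkc in replicate 2 (13.58 against 18.73 FPKM). Ighd (1.75 against 1.85 FPKM), Iglc1 (2.38 against 2.50), Iglc2 (1.31 against 1.47) and Iglc3 (1.72 against 1.78) were only slightly lower in replicate 2. The summed FPKM of all genes was lower there too, at 304281 against 315556. In DhpsΔLysm, Ighd and Igkc were lower in replicate 1 instead. The FPKM of Igkc was 0.684 and 0.656 times that of Ighm in DhpsΔLysm and 0.693 and 0.425 times in Dhps fl/fl. The ratio of Jchain, which encodes the chain that joins secreted IgM and IgA, to Ighm was 0.0434 and 0.0289 in DhpsΔLysm and 0.0414 and 0.0147 in Dhps fl/fl. Dhps fl/fl replicate 2 thus stood lowest in both ratios.

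Rag2, which encodes a recombinase subunit and stayed under the filter, was at 0.13 FPKM in both DhpsΔLysm libraries against 0.03 and 0.02 FPKM in the Dhps fl/fl libraries. Rag1, its partner, was at 0.44 and 0.32 FPKM against 0.28 and 0.10 FPKM. Both were picked after their values were seen and had non-overlapping groups, as 20.0% of all genes tested did in this direction, whereas the groups of the other 5 early B cell genes overlapped. Prdm1, which encodes a factor of plasma cells that other leukocytes also express, had the lowest log2 fold change of the pathway list, -0.79, with 0.12 and 0.19 FPKM in DhpsΔLysm and 0.23 and 0.48 FPKM in Dhps fl/fl, and its adjusted p was 0.78 from limma.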
